A study of Ovis aries with 6 samples.

Results

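A set of 154 scarce RNAs of the sheep oocyte stood far lower in metaphase II (MII) oocytes than before maturation. Their identifiers come from transcript assembly, which does not show that they lie outside the gene annotation. They were selected on their measured counts. Most members were still counted in MII, with 150 having a count in each MII library and 1 having none in any. Some of these counts were 3 or fewer. Each carries an MSTRG identifier, the name StringTie gives to a locus it assembles from reads. Each had a mean of at least 2 CPM (counts scaled to 1000000 per library) in germinal vesicle (GV) oocytes, a mean in MII of at most 1/8 of that, and a mean under 50 CPM over all 6 libraries. They are 154 of 6695 assembled loci and 154 of 25609 features in all. The GV and MII levels chose the members, so every difference between the stages given for them is a description and is not support for a change.

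The libraries held total RNA, depleted of ribosomal RNA, from oocytes of sheep whose strain is given as Xinjiang Sheep, with 3 libraries per stage and 30 to 35 oocytes in each. Follicles measured 2 to 8 mm. GV oocytes were found bare of cumulus cells at collection. MII oocytes were taken as complexes with cumulus cells, stripped with hyaluronidase, matured in vitro for 23 to 25 h and picked for an extruded first polar body. Stage, culture and the state at collection therefore cannot be told apart. The labels name no genotype, treatment, animal or age, and the same strain and tissue were used for both stages. Nothing says that pools came from separate animals, so a p-value here speaks to the spread among these 6 pools, which may be partly technical.

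Fully grown GV oocytes have largely stopped transcription and live on RNA stored during growth. During maturation some stored messages are translated and others lose their poly(A) tail and are degraded, a clearance that continues until the embryo's own genome is active. Loci assembled from reads can be long non-coding RNAs, unannotated genes or extensions of known genes. Positions, sequences and coding status were not used here, so no locus is assigned to any of these kinds. With pooled oocytes, fewer molecules in every oocyte and fewer oocytes that hold the RNA cannot be told apart, and levels are shares of each library, with no measure of RNA per oocyte.

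Library totals were 26984892 to 28117286 counts in GV and 28578411, 31291218 and 31962405 in MII libraries 1, 2 and 3. The factors of the trimmed mean of M-values (TMM), which rescale libraries to a common middle, were 1.16 to 1.17 in GV and 0.899, 0.910 and 0.769 in MII. Scaling by totals in place of TMM moved the median log2 difference of MII and GV over all tested features from −0.01 to −0.45. Every level below is CPM on library totals, the scale of the selection, and every log2 fold change is MII relative to GV on the TMM scale. Markers of oocytes and of cumulus cells were not analysed here. The RefSeq gene list used for symbols held 0 Ensembl identifiers, so the 18914 gene identifiers could not be matched to symbols.

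The limits themselves kept out abundant loci, and the selected loci were mostly scarce even in GV. Their GV means ran from 2.02 to 81.4 CPM with a median of 5.38 CPM. That median was 6.81 CPM in the other assembled loci that met the same level limits. Of the 154, 72 lay under 5 CPM, 39 from 5 to under 10 CPM, 18 from 10 to under 20 CPM, 15 from 20 to under 50 CPM and 10 above that. In MII the means ran from 0 to 9.76 CPM with a median of 0.450 CPM, and 118 loci were under 1 CPM. The MII mean was a median of 9.86% of the GV mean, with 81 loci at 10% or less and 7 at 5% or less. Together the members took 0.188 ± 0.00334% of counts in GV (SD, n = 3) and 0.0178 ± 0.00623% in MII (SD, n = 3). Of the counts on assembled loci alone they took 1.16 ± 0.0737% and 0.144 ± 0.0499% (SD, n = 3 each). The 10 members with the highest GV level held 34.8% of the summed GV level of all 154.

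**Figure D1:**
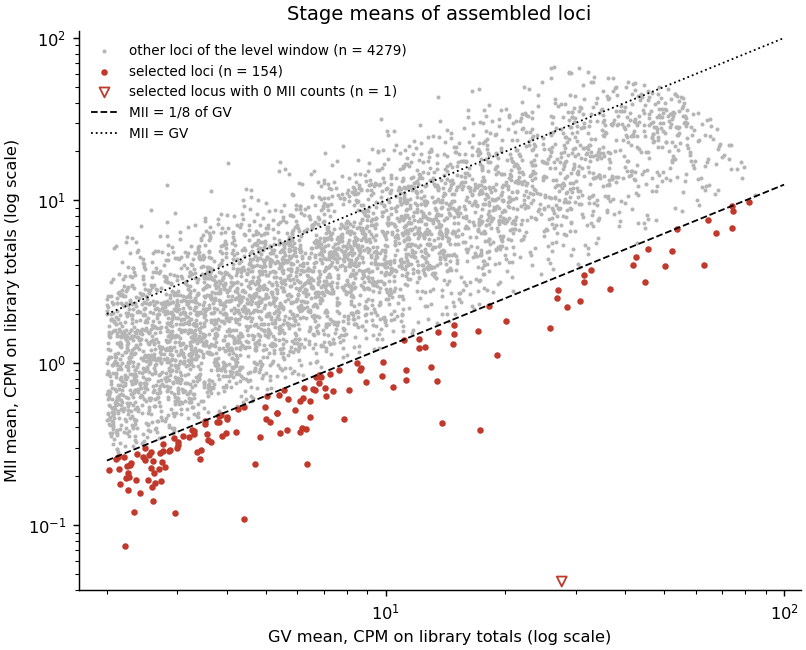
GV mean (x axis) against MII mean (y axis), both in CPM on library totals and on log scales, for assembled loci with a GV mean of at least 2 CPM and a mean under 50 CPM. Red points are the 154 selected loci under the dashed line at 1/8 of GV, and the open triangle is the locus with 0 MII counts, drawn at the bottom edge.

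The selection took the far edge of a broad distribution rather than a separate group. Among the 4433 assembled loci that met both level limits, the median MII level was 50.4% of GV, and 3.47% lay at or under the ratio limit of 12.5%. A further 641 loci lay above 12.5% and up to 25%. Just inside the limit stood MSTRG.19826, at 12.499% of GV, and MSTRG.1553, at 12.437%. Just outside stood MSTRG.15425, at 12.551%, and MSTRG.1709, at 12.583%. At the GV minimum, MSTRG.18217 (2.02 CPM) and MSTRG.914 (2.11 CPM) were inside, and MSTRG.13882 (1.98 CPM) and MSTRG.19270 (1.97 CPM) outside. At the upper limit, MSTRG.4843 (mean 45.6 CPM over 6 libraries) and MSTRG.8890 (41.5 CPM) were inside, and MSTRG.11311 (53.0 CPM) and MSTRG.23281 (56.7 CPM) outside. In all, 8 loci met the other limits and were left out by that limit alone.

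The same limits set on annotated genes picked 153 of 6856, or 2.23%, with a median GV mean of 14.1 CPM. The share that met the ratio limit differed between the 2 classes mainly at low levels. From 2 to under 4 CPM in GV, 65 of 1334 assembled loci (4.87%) and 33 of 1504 annotated genes (2.19%) met the ratio limit. From 16 to under 32 CPM the shares were 2.12% and 2.06%, and above that 4.12% and 4.52%. The median MII level, in contrast, was lower in assembled loci at every level. It was 46.5% of GV against 75.7% in annotated genes from 2 to under 4 CPM, and 53.9% against 89.2% from 16 to under 32 CPM. Over all features within the level limits it was 50.4% against 79.5%. None of these differences was tested. With the stages exchanged, so that MII had at least 2 CPM and GV at most 1/8 of it, 4 assembled loci and 30 annotated genes met the limits.

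The most abundant members kept a measurable level in all 3 MII libraries. MSTRG.4843, the highest, stood at 92.4, 83.6 and 68.3 CPM in the GV libraries and at 11.1, 9.84 and 8.38 CPM in the MII libraries. Its lowest GV library was 6.18 times its highest MII library, and its log2 fold change was −2.62 ± 0.20 (SE). MSTRG.8890 stood at 74.0, 62.6 and 86.9 CPM in GV and at 10.4, 11.8 and 3.47 CPM in MII. Here MII library 3 was far below the other two, and the stages again did not overlap. MSTRG.20042 went from 63.0, 82.4 and 76.2 CPM to 10.8, 5.24 and 4.07 CPM, with MII library 1 the highest. MSTRG.8101 had 90.9, 55.2 and 75.3 CPM in GV and 10.1, 12.7 and 4.66 CPM in MII. MSTRG.24072 had 75.8, 56.3 and 70.6 CPM in GV and 6.82, 8.53 and 3.47 CPM in MII. In 5 of these 6 abundant loci the GV libraries lay within a factor of 1.5 of each other, the exception being MSTRG.8101, and in all 6 MII library 3 was the lowest. The sixth, MSTRG.5591, had 55.5, 70.5 and 67.6 CPM in GV and 9.06, 8.72 and 5.07 CPM in MII.

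Among members of at least 5 CPM in GV, and leaving aside MSTRG.15375, whose GV level came from 1 pool, MSTRG.23594 had the lowest ratio of MII to GV. Its counts were 511, 475 and 433 at the GV stage and 13, 11 and 11 at the MII stage, or 17.3 ± 1.78 CPM and 0.384 ± 0.0619 CPM (SD, n = 3 each). Its lowest GV library was 33.9 times its highest MII library. Pooled over libraries, MII was 2.21% of GV, with an exact 95% counting interval of 1.53 to 3.09%. MSTRG.24896 gave 99, 204 and 222 GV counts and 5, 9 and 8 MII counts, a pooled 3.75% (2.33 to 5.74%). It was one of 13 members with MII library 1 the lowest. MSTRG.9971 was even across GV, at 8.15, 7.34 and 8.11 CPM, and had 0.490, 0.671 and 0.188 CPM in MII. MSTRG.15760 had 15.0, 8.96 and 16.3 CPM in GV and 1.19, 0.607 and 0.532 CPM in MII. For these 4 loci the stages were separated by at least 7.53 times. The intervals cover counting error only, since reads were not tied to single molecules by identifiers.

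**Figure D2:**
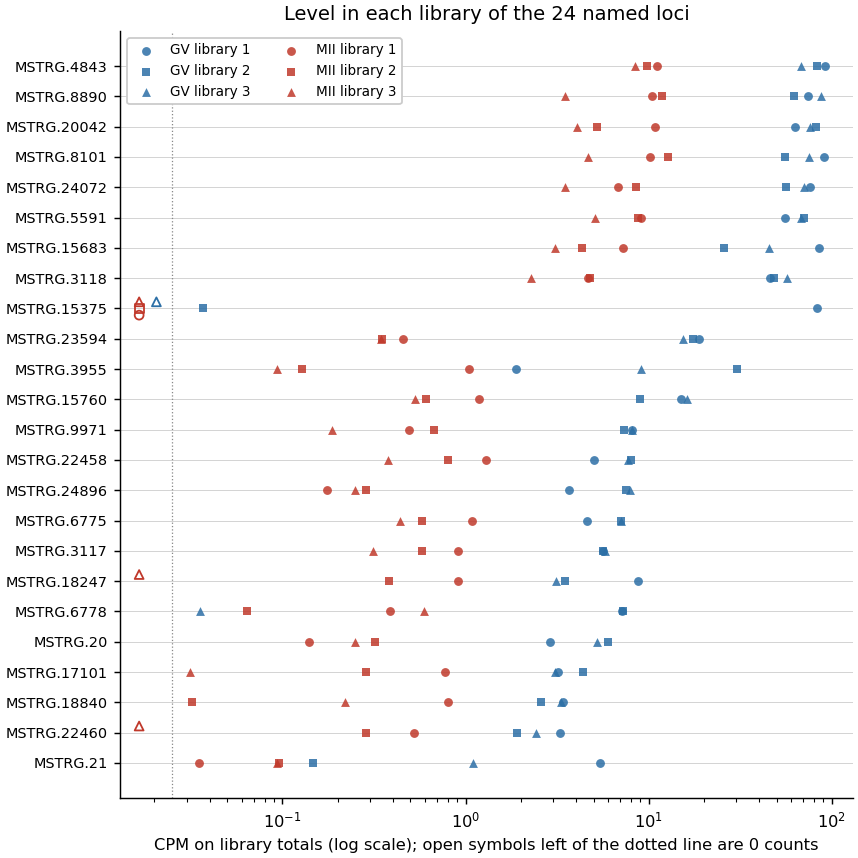
Level in each of the 6 libraries (x axis, CPM on library totals, log scale) of 24 members described in the text, ordered by GV mean, with GV libraries in blue and MII libraries in red. Open symbols left of the dotted line mark 0 counts: MSTRG.15375 has 83.0 CPM in GV library 1 and 0.0369 CPM in GV library 2 and 0 counts in the others, while the GV symbols of MSTRG.23594 lie close together.

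In some members 1 GV pool differed sharply from the others. MSTRG.15375 had 2240 counts in GV library 1, 1 count in GV library 2 and 0 counts in GV library 3 and in each MII library. Against a floor of 3 counts over the MII group its GV mean was at least 847 times higher, but that mean came from 1 pool, and the locus did not pass the low-count filter of the test. It was the single locus, among 6252 assembled loci with at least 100 counts in total, with at least 90% of its counts in 1 library, and 7 of 11909 annotated genes did so. Without GV library 1 it did not meet the selection limits. MSTRG.6778 gave 194, 197 and 1 GV counts and 11, 2 and 19 MII counts, so GV library 3 lay below every MII library, and it met the limits whichever library was left out. MSTRG.15375 and MSTRG.6778 were the 2 members whose stages overlapped.

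Other members were uneven without overlapping. MSTRG.3955 was uneven at both stages, with GV counts of 51, 827 and 257 and MII counts of 30, 4 and 3, and GV library 2 held 73.4% of its GV level. The gap between its stages was narrow, with the lowest GV library 1.80 times the highest MII library. MSTRG.21 gave 146, 4 and 31 GV counts and 1, 3 and 3 MII counts, and the filter left it untested. Over all members, 1 GV library held most of the GV level in 17 loci, which was GV library 1 in 9, library 2 in 4 and library 3 in 4. The GV libraries lay within a factor of 1.5 of each other in 75 members (48.7%) and in 65.8% of the 4279 loci that met the level limits but not the ratio limit. The median coefficient of variation across GV libraries was 21.0% in members and 16.1% in those other loci. In the annotated genes that met the same limits it was 13.6%, and 69.9% of them lay within a factor of 1.5. The sets also differed in level, with median GV means of 5.38 CPM in members, 6.81 CPM in the other loci and 14.1 CPM in those genes. These spreads were not tested, and a high value in 1 GV library raises the GV mean that the selection uses.

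**Figure D3:**
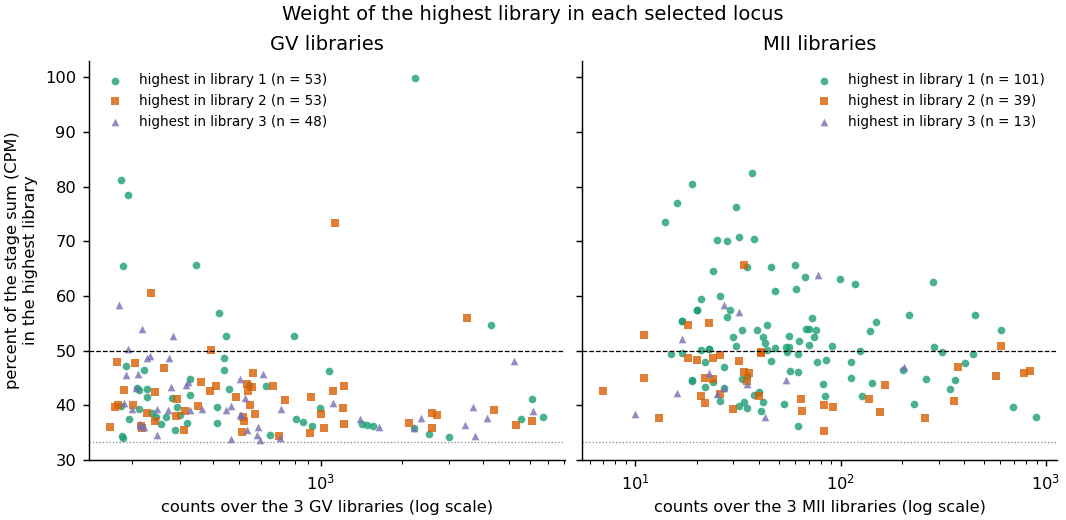
Percent of the summed CPM of a stage that lies in its highest library (y axis) against the counts over the 3 libraries of that stage (x axis, log scale) for the 154 selected loci, GV on the left and MII on the right, with symbols for the library that is highest. The dashed line marks 50% and the dotted line an equal split, and the locus with 0 MII counts is not drawn on the right. In GV the highest library is spread over the 3 pools (53, 53 and 48 loci). In MII it is library 1 in 101 loci (65.6%), library 2 in 39 and library 3 in 13. Library 1 is also the highest in 56.8% of the other loci within the level limits, which are not drawn.

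Read against the test over all features, 152 of the 154 members passed the low-count filter and 151 were called lower in MII, with a Benjamini-Hochberg adjusted p under 0.05 in edgeR's quasi-likelihood test. The background was 26.2% of 19302 tested features lower in MII, 37.8% of tested assembled loci, and 39.0% of the 4279 other loci within the level limits. Since the selection used this contrast, nothing is read from the members' count. Their log2 fold changes ran from −5.04 to −2.56 with a median of −2.90, where the median over all tested features was −0.01. MSTRG.6778 was the tested member that did not pass (log2 fold change −3.30 ± 1.38 SE, edgeR adjusted p = 0.0855), and it passed without GV library 3 (adjusted p = 0.0016). MSTRG.3955 passed (−4.63 ± 1.24 SE, edgeR adjusted p = 0.0183) but did not without MII library 2 (adjusted p = 0.0744), with the replicate number as a block (adjusted p = 0.194), without a low-count filter (adjusted p = 0.0761) or in limma-voom (adjusted p = 0.261). MSTRG.18247 gave 236, 95 and 88 GV counts and 26, 12 and 0 MII counts. Its log2 fold change was −3.19 ± 0.80 SE (edgeR adjusted p = 0.00825), and its adjusted p was 0.0507 without MII library 2. The lowest GV library lay above the highest MII library in 152 members, in 61.7% of the other loci within the level limits and in 37.2% of all features.

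The counts behind the MII levels were small. A member had a median of 442.5 counts over the GV libraries (166 to 6679) and 41 over the MII libraries (0 to 892), and 50 members had under 30 MII counts in all. The exact 95% counting interval of the pooled ratio lay wholly at or under 12.5% for 67 members and reached above it for 87, so at this depth those 87 are not placed firmly on either side of the ratio limit. For all 154 the upper bound was at most 25%. The selection used these same counts, and the intervals leave out the spread among pools. The 67 are therefore not placed firmly under the limit either, and they include MSTRG.15375, whose GV counts came almost wholly from 1 pool.

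What was left of these RNAs was unevenly spread over the MII pools. The summed level of the members was 1920, 1861 and 1863 CPM in the GV libraries and 235, 186 and 111 CPM in MII libraries 1, 2 and 3. MII library 3, which had the highest total count, thus held 20.9% of the summed MII level, against 44.1% in library 1 and 35.0% in library 2. The typical member kept 13.2% of its GV level in library 1, 9.14% in library 2 and 5.51% in library 3 (medians over 154 loci). Library 3 was the lowest of the 3 for 111 members (72.1%), and 22 members had at most 3 counts in it, against 10 in library 2 and 6 in library 1. On TMM totals library 3 was still the lowest for 97 members, and the medians were 17.1%, 11.7% and 8.36%. Each MII library is 1 pool, so these differences have no replicate and no test. The selection used the mean of the MII libraries and not which of them was high. Each library's own level is part of that mean, however, so a low level in library 3 also helps a locus to be selected.

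Some members had most of their remaining signal in 1 pool. Among those with at least 30 MII counts, MII library 1 held 82.6% of the MII level of MSTRG.3955, 76.2% of MSTRG.18840, 70.7% of MSTRG.17101 and 70.3% of MSTRG.18247. MSTRG.18840 was even in GV, with 92, 70 and 94 counts, and had 23, 1 and 7 counts in MII. MSTRG.17101 gave 86, 119 and 87 GV counts and 22, 9 and 1 MII counts. In all, 1 library held most of the MII level in 65 members, and it was library 1 in 56 of them. A high library 1 was not particular to the members. It was the highest MII library for 65.6% of members and 56.2% of annotated genes under the same limits. Among assembled loci it was highest for 71.3% at 12.5 to 25% of GV and 68.0% at 25 to 50%. Over all other loci within the level limits it was 56.8%.

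**Figure D4:**
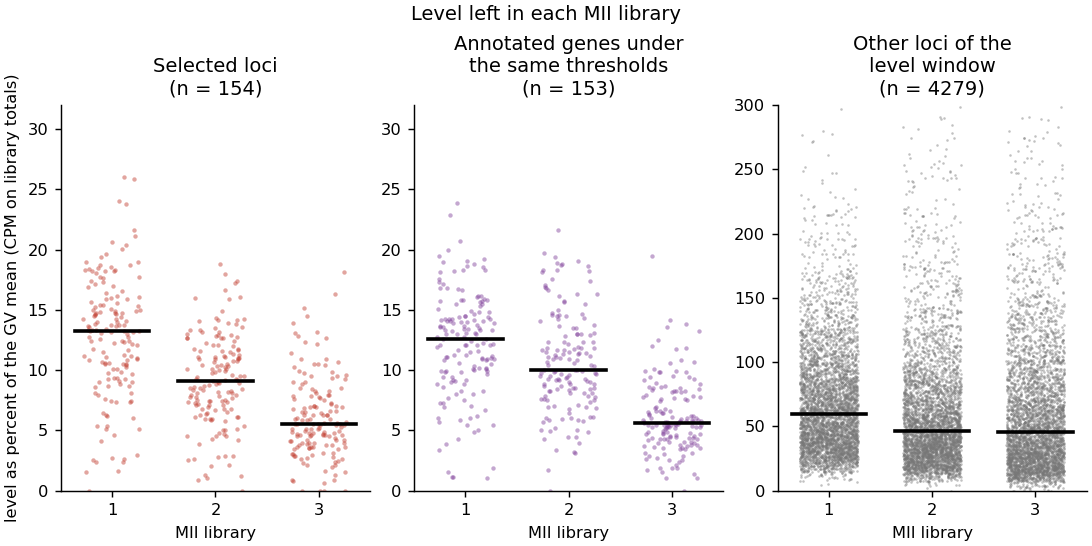
Level in MII libraries 1, 2 and 3 as percent of the GV mean (y axis, CPM on library totals) for the 154 selected loci, the 153 annotated genes that meet the same limits and the 4279 other loci within the level limits, with 1 point per feature and a bar at the median. The y axis of the right panel runs to 300% and leaves out 47 points above it. Medians of the selected loci fall from 13.2% in library 1 to 5.51% in library 3, and those of the annotated genes from 12.6% to 5.62%.

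The annotated genes that met the same limits had the same order of medians across the MII pools, at 12.6%, 10.02% and 5.62% of GV, and library 3 was the lowest for 117 of 153 (76.5%). In the 4279 other loci the medians were 59.9%, 46.6% and 45.5%, and library 3 was the lowest for 47.9% of them. On TMM totals that share was 32.9%, against 63.0% of the members and 68.6% of the annotated genes. On library totals, the share among assembled loci was larger where the reduction was larger. At 12.5 to 25% of GV it was 64.0%, at 25 to 50% it was 57.2%, at 50 to 100% it was 40.6%, and above GV it was 30.2%. Among annotated genes it did not rise with the size of the reduction below 50% of GV, at 76.5%, 79.6% and 77.5% from the largest reduction down, and was 61.8% at 50 to 100% and 40.4% above GV. None of these shares was tested. Library 3 is itself part of the MII mean that sorts features by reduction, so a low level in it moves a feature toward the larger reductions.

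**Figure D5:**
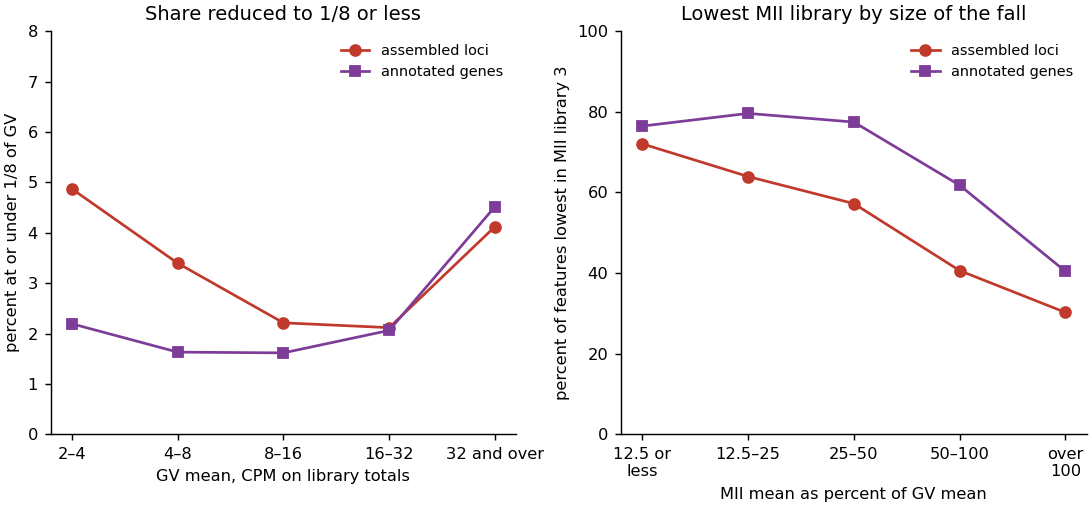
Left, percent of assembled loci and of annotated genes within the level limits whose MII mean was at most 1/8 of the GV mean (y axis), by GV mean in CPM (x axis). Right, percent of features for which MII library 3 was the lowest of the 3 MII libraries (y axis), by MII mean as percent of GV mean (x axis), which in assembled loci falls at each step from 72.1% to 30.2%, and in annotated genes lies between 76.5% and 79.6% up to 50% of GV and then falls to 61.8% and 40.4%.

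Membership depended on which pools were read. With the limits applied to the other 5 libraries, leaving out 1 in turn, 79 of the 154 loci were selected every time and 75 were not. MII library 1 moved the number most. Without it 262 loci were selected, 150 of them members, and in library 1 itself 66 of these 262 (25.2%) lay at or under 12.5% of the GV mean, with a median of 17.0%. Without MII library 3, 110 loci were selected, and in library 3 itself 90 of them (81.8%) lay at or under 12.5%, with a median of 5.92%. For MII library 2 it was 107 of 165 (64.8%). A selection without GV library 1, 2 or 3 was met in that library by 104 of 158, 112 of 155 and 112 of 164 loci. At a looser limit of 25%, the library left out met it for 79.8% of loci in MII library 1. In each of the other 5 it was 94.8 to 96.4%. Each of these ratios still used the mean of the other stage that had helped to choose the loci. High shares were thus partly fixed in advance, and nothing is read from them. On the means of all 6 libraries, 795 of the 4433 loci within the level limits lay at or under 25%. Scaling mattered as well: on TMM totals 67 loci met the limits, 66 of them members.

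The identifier numbers of the members were spread over the whole list. Positions were not used here, so nearness in number is not read as nearness in the genome. Members ran from MSTRG.20 to MSTRG.24896, and when the assembled loci were cut into 10 equal parts by number, a part held 10 to 23 of them. In 4 places 2 members followed each other in the list. MSTRG.20 gave 78, 163 and 146 GV counts and 4, 10 and 8 MII counts, while its neighbour MSTRG.21, described above, was high in GV library 1. MSTRG.3117 had 5.67, 5.61 and 5.76 CPM in GV and 0.910, 0.575 and 0.313 CPM in MII. Its neighbour MSTRG.3118 stood at a higher level and was less even in GV, with 45.7, 48.3 and 57.0 CPM in GV and 4.69, 4.79 and 2.28 CPM in MII. MSTRG.6775 gave 125, 192 and 198 GV counts and 31, 18 and 14 MII counts, unlike MSTRG.6778, whose GV library 3 had 1 count. MSTRG.22458 gave 135, 216 and 218 GV counts and 37, 25 and 12 MII counts. The counts of MSTRG.22460 were 89, 52 and 68 at the GV stage and 15, 9 and 0 at the MII stage. Of 61 neighbours 1 number away that met the level limits, 4 (6.56%) were members, where 3.47% of all such loci were. These 4 were 2 pairs counted from both ends, MSTRG.20 with MSTRG.21 and MSTRG.3117 with MSTRG.3118, and the share was not tested. The other 57 had a median MII level of 55.4% of GV, near the 52.0% of all other loci within the level limits.

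MSTRG.15683 was counted almost identically to an annotated gene. Its counts were 2314, 696 and 1270 in GV and 206, 135 and 98 in MII, and those of ENSOARG00000003708 were 2296, 692 and 1263, and 202, 132 and 96. The largest gap was 2.22% in any library. Among 62 members with at least 600 counts in total it was the only one with an annotated gene within 10% in every library. Whether the same reads were counted under both identifiers was not tested.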

How the data were processed

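The authors deposited whole-number counts per feature, without normalization, as 1 table of 6 libraries. The Oar_v3.1 build was used, per the submitters' processing notes, which name featureCounts 1.6.4, StringTie 2.0, STAR 2.7.1a, Trimmomatic 0.38 and DESeq2. The tools' order, the assembled libraries, the strand setting and how reads with several alignments were counted were not given in the sources used here, so overlapping, antisense or near-identical features may share reads. Columns were matched to libraries by stage and replicate number.

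CPM were counts over column sums. The members, the comparison sets and the rule for named loci were chosen with earlier results of these data known. That rule took the 6 highest in GV, the 6 lowest ratios at 5 CPM or more, the 4 most uneven in GV, the 4 most uneven in MII with at least 30 counts, members next to each other in number, those matching an annotated gene, those not passing the test, and the loci at each limit.

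MII was compared with GV by edgeR 4.0.16 in R 4.3.3 (filterByExpr, TMM, robust quasi-likelihood F-test, Benjamini-Hochberg over 19302 features), after a check on simulated counts. The SE is the absolute log2 fold change over the square root of F, an approximation. Alternatives covered other scalings, filters, limits, DESeq2 1.42.0, limma-voom (limma 3.58.1), a block on replicate number and the omission of each library. Intervals of pooled ratios are exact (Clopper-Pearson, 95%). Gene lists fixed by symbol were not analysed, because the RefSeq gene list of ARS-UI_Ramb_v3.0 gave no Ensembl identifiers to match.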

Additional observations from a re-analysis of the deposited data

How the results depend on the processing

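No member changed direction in any of the 14 alternative fits that tested it. The selection on the same counts all but fixed this in advance, so nothing is read from it. The number of selected loci was 67 with CPM on TMM-scaled totals, 61 on DESeq2 size factors, 81 on upper-quartile totals and 30 on quantile-normalized CPM, an alternative added after the data were seen. It was 795 at a ratio limit of 1/4, 15 at 1/16, 82 with a GV minimum of 5 CPM, and 22 when every MII library had to be at most 1/8 of the lowest GV library, all looser or stricter by construction. Leaving out each library gave 110 to 262, with 262 without MII replicate 1. A filter of 5 CPM, which tested fewer features, left 3243 features and 62 members lower in MII. Scaling by total count alone gave 2332 features higher, against 4769. Leaving out each library gave 4072 to 5119 features lower, 3632 to 4813 higher and 148 to 152 members lower. The replicate block gave 4621 features lower, 4094 higher and 149 members lower, and deviations of same-numbered libraries were not positively correlated (−0.0892, −0.230 and −0.0304). Of 22 named members that were tested, 19 kept their call throughout. MSTRG.3955 lost it in limma-voom, without a low-count filter, under the replicate block and without MII replicate 2 (adjusted p 0.0744 to 0.261), and MSTRG.18247 without MII replicate 2. MSTRG.6778 gained one without GV replicate 3 and with total counts alone (adjusted p = 0.0278). The members' share of counts was 0.161% in GV on TMM-scaled totals, and 0.123% in GV and 0.0110% in MII without the 10 most abundant. Leaving out each library gave 0.186 to 0.189% in GV and 0.0149 to 0.0211% in MII. The part of the remaining MII signal in libraries 1, 2 and 3 was 42.8%, 33.5% and 23.7% on TMM-scaled totals, and 45.1%, 32.8% and 22.1% without the 10 members highest in MII. It was 45.3%, 32.7% and 22.1% for members by the rule on TMM CPM, and 33.1% in library 2 as a median over members. Where no construction is named, the cause was not tested.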
